A study of Mus musculus with 36 samples.

Results

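Dexamethasone (DEX), a synthetic agonist of the glucocorticoid receptor, was compared with untreated control in primary mouse cortical cultures. Only libraries labelled batch 2 (of 2 numbered batches) with a labelled RNA integrity number (RIN) of 6 or above were used. This left 8 of the 36 RNAseq libraries of the series, 4 of control cultures (Control 21 to 24) and 4 of DEX-treated cultures (Dex 27 to 30). The cells were dissociated from C57 mouse cortex at embryonic day 18 and sold as a commercial preparation (C57EDCX), so they are a mixture of the cell types of that tissue, and no genotype or transgene differed between the groups. DEX was given at 1 µM for 72 h, and control wells received fresh growth medium without it. The labels number the libraries but do not say which came from separate cultures or animals, so p-values measure the spread between these libraries. All 20744 genes with a mean count above 5 over the 8 libraries are described.

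The glucocorticoid receptor is a hormone-activated transcription factor of the nuclear receptor family. Once bound by ligand it enters the nucleus, where it binds DNA at glucocorticoid response elements and raises or lowers the transcription of target genes such as Fkbp5 and Tsc22d3. In brain tissue, neurons, astrocytes and oligodendrocytes all carry the receptor. RU-486 (mifepristone) is an antagonist of it.

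The groups overlapped in RIN (7.40 to 8.00 in control, 7.40 to 7.70 in DEX) and in total counts (27.8 to 47.3 M in control, 21.3 to 29.3 M in DEX). They did not overlap in several measures of composition, nor in the counts outside the mitochondrial genome, of which controls had 18.8 to 33.9 M and DEX libraries 13.4 to 18.3 M. After thinning to an equal total of 21.3 M counts, mitochondrial counts included, so that DEX libraries still held fewer nuclear counts, control libraries held between 26015 and 28246 genes with a count and DEX libraries between 19606 and 25456. Mitochondrial rRNA took 23 to 30.7% of the counts in control and 33.5 to 35.5% in DEX, and nuclear protein-coding genes took 60.9 to 68.2% and 54.0 to 56.3%. Each of these 4 differences had a two-sided exact permutation p = 0.0286, the smallest that 4 against 4 libraries allow, and an adjusted p = 0.0524 over 11 such measures. Among the DEX libraries, Dex 27 had the fewest genes, and 343 genes in it lay more than 2-fold below every other library. Among the controls, Control 24 was the deepest, and processed pseudogenes took 0.153% of its counts against 0.374 to 0.412% in the other controls. The part of these measures of composition in the differences below was not tested.

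**Figure D1:**
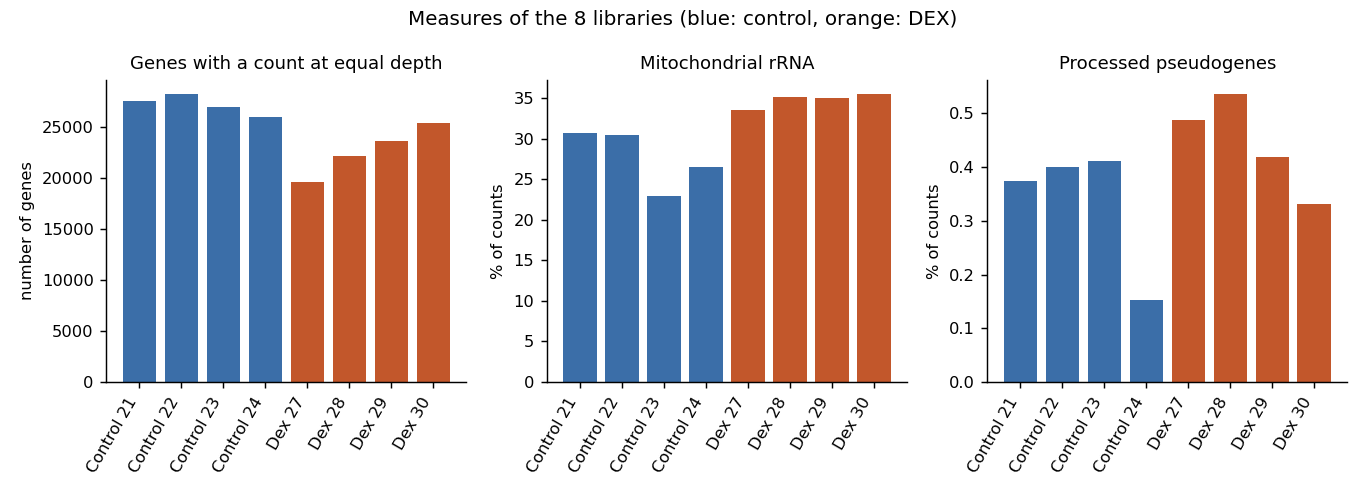
Bars give, for each of the 8 libraries, the number of genes with a count after thinning to a total of 21.3 M counts, the percent of counts on mitochondrial rRNA, and the percent of counts on processed pseudogenes. DEX libraries have fewer genes and more mitochondrial rRNA than every control, and Control 24 has the smallest share of pseudogene counts.

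At an adjusted p under 0.05 by edgeR's quasi-likelihood test, 82 genes were higher in DEX, which is 0.395% of the genes tested, and 85 were lower, which is 0.410%. At an unadjusted p under 0.05, 1591 genes (7.67%) were higher and 1785 (8.60%) lower. In 971 genes (4.68%) all 4 DEX libraries lay above all 4 controls, and in 1385 genes (6.68%) all 4 lay below. All 82 and all 85 called genes were of this kind. Log2 fold changes of the higher genes ranged from 0.34 to 2.36 with a median of 0.60, and those of the lower genes from -5.18 to -0.30 with a median of -0.42, so most called changes were smaller than 2-fold. The higher genes included 64 protein-coding genes and 18 of other biotypes, and the lower genes 84 protein-coding genes and 1 other. That other gene was Gm27517, a miscellaneous RNA, which had 0.506 to 2.11 CPM in control and 0 to 0.108 CPM in DEX. CPM relate each count to the library total after scaling by the normalization factor.

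The genes with the largest called rises included genes of myelin, the lipid-rich sheath that oligodendrocytes wrap around axons. Mobp, which encodes myelin-associated oligodendrocyte basic protein (chromosome 9, 120149707 to 120181484, GRCm38), measured 27.6, 23.3, 26.8 and 21.4 CPM in Control 21 to 24 and 70.2, 100, 131 and 106 CPM in Dex 27 to 30. The lowest DEX library was thus far above the highest control, a log2 fold change of 2.04 ± 0.16 (SE) with an adjusted p = 9.62e-05. Mal, whose product is a membrane protein of myelin and of lymphocytes (chromosome 2, 127633226 to 127656695), measured 4.25, 3.16, 3.09 and 4.69 CPM in control and 11.8, 17.3, 28.5 and 20.8 CPM in DEX. The groups again did not overlap, with a log2 fold change of 2.36 ± 0.25 (adjusted p = 0.00120). For Mobp and Mal, Dex 29 was the highest library and Dex 27 the lowest of the DEX libraries.

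Promoter sequences of 3 of the called genes of myelin are shown, to give the stretches in which the motifs below were searched. They are the bases just upstream of the start site (RefSeq sequence, build GRCm38.p6, trimmed where GENCODE places the transcript start further upstream), written 5′ to 3′ on the strand of the gene. 4 short motifs were searched on both strands. They were AGAACA (a glucocorticoid response element half-site), TCACNCCAC (a sterol regulatory element core), ACAAAG (a core that HMG-box factors such as the Sox family bind) and CCAAT (the CCAAT box). The Mobp stretch (chr9:120149492-120149706, plus strand) held ACAAAG 6 times, all as its reverse complement. The Mag stretch (chr7:30914874-30915113, minus strand) held it 1 time, and the Mal stretch (chr2:127656696-127656945, minus strand) held none. The stretches of 250 bases of 2 further called genes of myelin, Gjc3 and Ugt8a, are not shown and also held none, so ACAAAG occurred in 2 of these 5 genes. Capitals mark the ACAAAG matches, a motif that 16.5% of all 32851 upstream stretches of 250 bases contain.
Mobp: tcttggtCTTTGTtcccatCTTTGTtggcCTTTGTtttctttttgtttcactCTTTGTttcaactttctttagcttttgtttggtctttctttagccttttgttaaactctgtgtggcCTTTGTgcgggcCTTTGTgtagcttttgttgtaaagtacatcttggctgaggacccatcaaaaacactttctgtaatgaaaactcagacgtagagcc
Mag: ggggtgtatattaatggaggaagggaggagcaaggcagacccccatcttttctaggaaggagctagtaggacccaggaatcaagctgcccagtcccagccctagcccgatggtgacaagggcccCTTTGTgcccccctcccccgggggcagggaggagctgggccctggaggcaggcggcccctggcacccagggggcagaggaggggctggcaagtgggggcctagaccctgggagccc
Mal: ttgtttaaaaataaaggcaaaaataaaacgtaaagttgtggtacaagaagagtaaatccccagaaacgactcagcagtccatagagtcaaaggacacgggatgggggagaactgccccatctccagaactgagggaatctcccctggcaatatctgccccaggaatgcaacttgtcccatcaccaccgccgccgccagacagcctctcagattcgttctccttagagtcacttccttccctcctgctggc
None of these 3 stretches contained any of the other motifs. These are matches of letters within the window and not measured binding.

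Of the list of oligodendrocyte lineage markers, 18 of 18 were tested and 16 were positive (median log2 fold change 0.55) beside 0.0036 over all genes tested. In bulk RNA, more cells of a type and more RNA per cell cannot be told apart. Of them 5 were called higher, among which were Mobp, Mag, Mbp and Ugt8a, and 0 were called lower, beside 0.395% and 0.410% of all genes tested. With 1 library left out, 2 to 6 were called higher, and with RIN as a covariate 1. With the RIN under 3 libraries included, 6 against 6, 0 were called and the median of the list was 0.0035 with RIN class as a covariate and -0.082 without. Mag, which encodes myelin-associated glycoprotein, measured 18.8 to 28.5 CPM in control and 38.1 to 52.6 CPM in DEX (log2 fold change 0.86 ± 0.13, adjusted p = 0.0211). Mbp, the gene of myelin basic protein, had control libraries at 323, 293, 248 and 252 CPM and DEX libraries at 337, 424, 527 and 452 CPM (0.64 ± 0.12, adjusted p = 0.0388), so that Dex 27 was only just above Control 21. Ugt8a, whose enzyme makes the galactolipids of myelin, measured 11.2 to 15 CPM in control and 19.1 to 29.2 CPM in DEX (0.73 ± 0.15, adjusted p = 0.0485). In the same 6 against 6 fits Mbp was at -0.080 without a covariate, and Ugt8a at -0.078 without and -0.021 with RIN class. Gjc3, a connexin of oligodendrocytes that is not in the list, measured 3.09 to 4.11 CPM in control and 6.70 to 14.3 CPM in DEX (1.66 ± 0.23, adjusted p = 0.0138).

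Members of the list that mark the lineage or its early stages did not pass the test. Pdgfra, the receptor that marks oligodendrocyte precursors, had a log2 fold change of -0.17 ± 0.17 (adjusted p = 0.672), and Cspg4, another precursor marker, 0.31 ± 0.28 (adjusted p = 0.643). Olig1 and Olig2, transcription factors of the whole lineage, were at 0.24 ± 0.14 and 0.21 ± 0.18. Sox10, a lineage factor that acts on myelin genes, was at 0.59 ± 0.22 (adjusted p = 0.198), and Myrf, which drives myelin gene expression, at 0.51 ± 0.18 (adjusted p = 0.174). Enpp6, a marker of newly formed oligodendrocytes, was at -0.095 ± 0.27. The other members were all positive without a call. Cnp, a phosphodiesterase of myelin, had 34.7 to 56.9 CPM in control and 58.1 to 89.2 CPM in DEX, without overlap (0.56 ± 0.16, adjusted p = 0.102). Bcas1 (0.66 ± 0.22), Cldn11 (0.54 ± 0.33), Mog (0.39 ± 0.27) and Gpr17 (0.38 ± 0.32) overlapped, and Opalin was listed below 1 CPM in every library. Summed over the 18 genes, the list reached 593 to 809 CPM in control and 1037 to 1614 CPM in DEX.

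Astrocyte markers had no call in the main edgeR test. Other edgeR settings called some higher and 0 lower. These were 2 with robust dispersion, 2 with at least 10 counts in every library and 3 with no filter beyond 1 count. With RIN as a covariate and in the 6 against 6 fits 0 were called. Of 17 tested, 13 were positive with a median of 0.19, the unadjusted p was under 0.05 for 5 above and 0 below control, beside 7.67% and 8.60% of all genes tested, edgeR and limma-voom called 0, and DESeq2 called 3. The smallest adjusted p was that of Slc1a3, a glutamate transporter of astrocytes, with 14.4 to 18.5 CPM in control and 20.9 to 29.1 CPM in DEX (0.60 ± 0.13, adjusted p = 0.0508). Aldoc, an aldolase of astrocytes, measured 4.91 to 8.19 CPM and 8.04 to 17.4 CPM (1.07 ± 0.24, adjusted p = 0.0608), while Gfap and Aqp4, defining markers, stayed at or below 1.68 CPM in all libraries. Scrg1 was called at a low level, 0.258 to 0.608 CPM in control and 1.13 to 2.77 CPM in DEX (2.20 ± 0.45, adjusted p = 0.0459). Microglial markers were near the detection limit, with a summed level of 12.7 to 24.5 CPM in control and 9.58 to 24.7 CPM in DEX over the 14 tested. Of them edgeR, DESeq2 and limma-voom called 0, and 0 had an unadjusted p under 0.05. Tmem119, a defining microglial marker, did not reach the count filter. Vascular and fibroblast markers summed to 4.16 to 5.90 CPM in control and 3.85 to 5.71 CPM in DEX, and Acta2, Col3a1 and Dcn did not reach the filter.

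Neuronal identity markers were spread on both sides of 0. Excitatory neuron markers, such as the vesicular glutamate transporters, had 7 positive and 10 negative log2 fold changes among 17, with a median of -0.049. Interneuron markers had 9 positive and 7 negative among 16, with a median of 0.039. edgeR and limma-voom called 0 of either list, and DESeq2 called 1 excitatory marker higher and 1 lower, beside 574 and 600 of all 20744 genes tested. The unadjusted p was under 0.05 for 3 excitatory markers and 0 interneuron markers. Over all genes tested it was under 0.05 for 7.67% above and 8.60% below control. The summed level of the excitatory list was 2347 to 2668 CPM in control and 2292 to 2567 CPM in DEX. Markers of cortical neurons were thus present in all 8 libraries, although Pvalb and Vip, which mark interneuron types, did not reach the count filter.

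**Figure D2:**
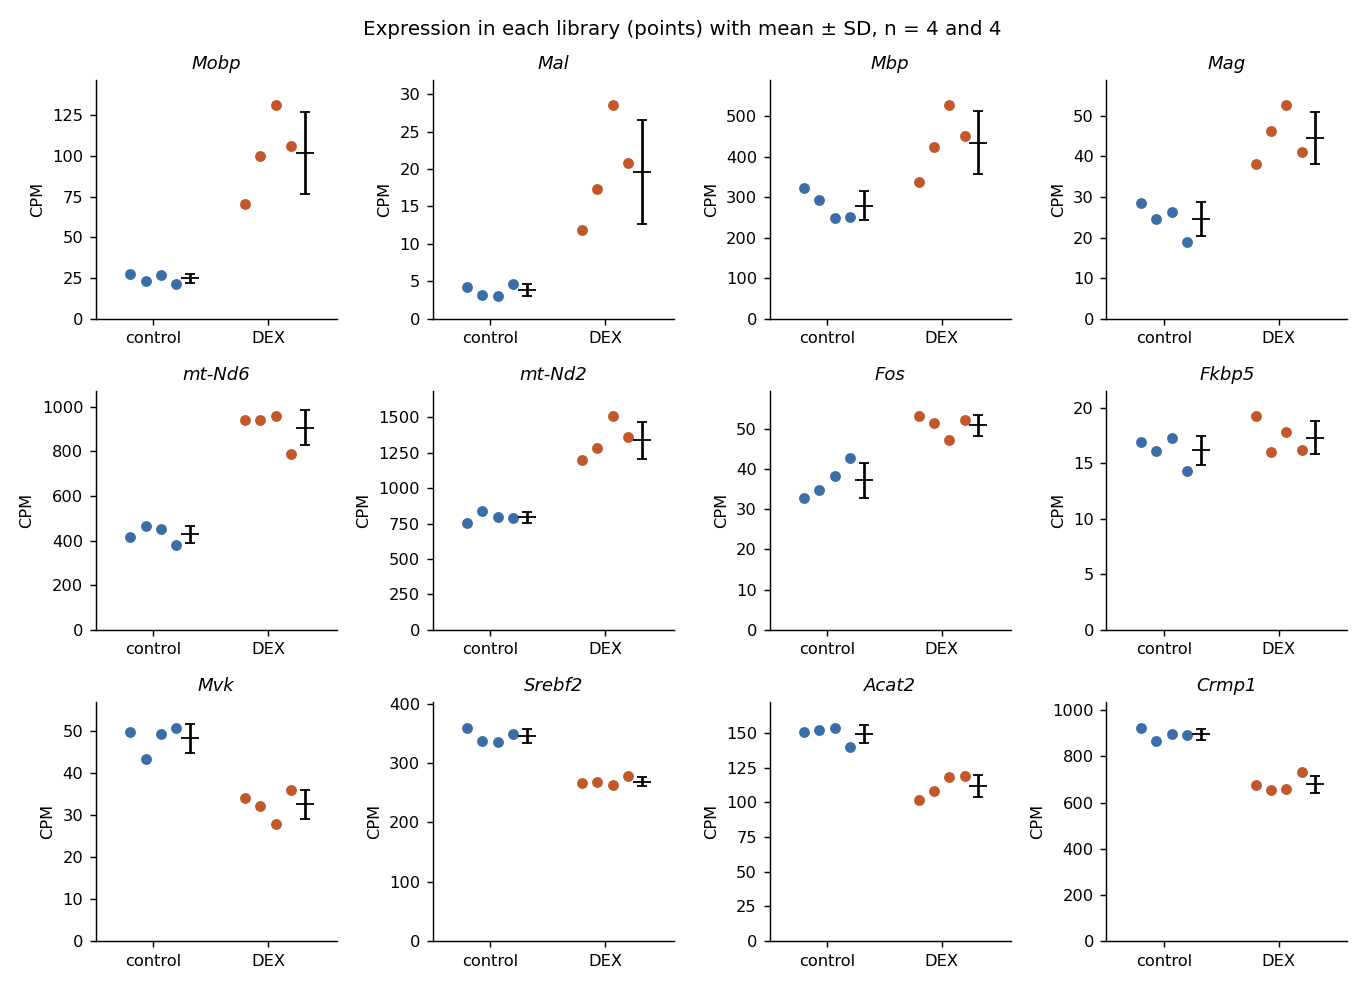
Each panel gives 1 gene in CPM, with a point for each library and the mean ± SD of the 4 control and 4 DEX libraries beside them. The myelin and mitochondrial genes drawn lie higher in DEX without overlap, Mvk, Srebf2, Acat2 and Crmp1 lie lower without overlap, and Fkbp5 overlaps.

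Several transcripts of the mitochondrial genome were also higher. The mitochondrial genome encodes 13 proteins of the respiratory chain and 2 rRNAs, transcribed as long precursors from both strands. Of the 13 mRNAs, 11 had positive log2 fold changes, with a median of 0.54, and 5 were called higher and 0 lower, beside 0.395% and 0.410% of all genes tested. With 1 library left out, 4 or 5 were called higher, and 0 lower except 1 without Dex 30. In the fits of 6 against 6 libraries 0 were called, at medians of 0.60 and 0.66. mt-Nd6, a complex I subunit and the only protein gene on its strand of this genome (chromosome M, 13552 to 14070), measured 414, 465, 450 and 382 CPM in control and 938, 942, 956 and 788 CPM in DEX, with a log2 fold change of 1.08 ± 0.085 (adjusted p = 9.62e-05). Dex 30 was the lowest DEX library and still far above the controls. mt-Nd2, another complex I subunit, measured 751 to 842 CPM in control and 1197 to 1507 CPM in DEX (0.75 ± 0.079, adjusted p = 0.00120). mt-Nd5, also of complex I, rose from 2480 ± 118 to 3911 ± 320 CPM (SD, n = 4 each), and mt-Cytb, of complex III, from 3357 ± 108 to 4993 ± 238 CPM, with log2 fold changes of 0.66 ± 0.075 and 0.57 ± 0.066 (both adjusted p = 0.00238 by edgeR). mt-Co1, of complex IV, rose by less, 0.36 ± 0.076 (adjusted p = 0.0486).

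Not all mitochondrial mRNAs shared the direction. mt-Co2 measured 77.6 to 157 CPM in control and 70.7 to 113 CPM in DEX (-0.61 ± 0.19, adjusted p = 0.138), and mt-Co3 measured 84.9 to 215 CPM and 63.4 to 117 CPM (-0.70 ± 0.25, adjusted p = 0.180). Both encode subunits of complex IV, and in both the groups overlapped. Control 24 stood low in the 2 shortest subunits of complex I, with 1.91 CPM of mt-Nd3 beside 9.47 to 11.7 CPM in the other controls and 14.7 CPM of mt-Nd4l beside 30.7 to 44.8 CPM. The nuclear genome holds copies of mitochondrial sequence, and 2 unprocessed pseudogenes of that kind, Gm10925, named after its values were seen (1402 to 1753 CPM in control, 2619 to 3064 CPM in DEX, 0.87 ± 0.087) and Gm13339 (8.52 to 44.2 and 91.2 to 149 CPM, 1.89 ± 0.35), were called higher. Reads of near-identical copies could be divided between them and the mitochondrial genes by the counting, and whether it used strand is not given in the sources used here, so mt-Nd6 and reads of the opposite strand cannot be told apart. With the mitochondrially encoded genes left out of the table, 72 genes were higher and 75 lower.

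Abundant noncoding RNAs were also among the higher genes. The labels give poly(A) selection and the study's methods a total RNA library. The part of library preparation in the levels of these RNAs was not tested. Malat1, a long noncoding RNA of nuclear speckles, measured 10519 to 13216 CPM in control and 15436 to 20720 CPM in DEX (0.57 ± 0.10, adjusted p = 0.0338). Rn7sk, the 7SK RNA that restrains transcription elongation, measured 4344 to 5269 CPM and 5877 to 8375 CPM (0.57 ± 0.10, adjusted p = 0.0318). Kcnq1ot1, an imprinted antisense RNA, measured 182 to 268 CPM and 301 to 341 CPM (0.53 ± 0.10, adjusted p = 0.0379). Rn7s2, 7SL RNA of the signal recognition particle, has near-identical copies and is therefore uncertain. It measured 6273 to 10998 CPM and 12524 to 19785 CPM (0.89 ± 0.18, adjusted p = 0.0465). Among protein-coding genes, the splicing regulators Luc7l3 (214 to 252 and 294 to 498 CPM, 0.78 ± 0.14), Prpf38b (52.5 to 66.1 and 76.5 to 124 CPM, 0.74 ± 0.13) and Srek1 (55.4 to 64.6 and 74.3 to 108 CPM, 0.64 ± 0.11) were called higher. In these 3 genes Dex 30 was the DEX library nearest to the controls. The genes of this paragraph were chosen after their values were seen.

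Other called genes had various roles. Gng12, a G protein gamma subunit, rose from 24.2 ± 0.803 to 42.7 ± 6.82 CPM (SD, n = 4 each), a log2 fold change of 0.82 ± 0.11 (adjusted p = 0.00932 by edgeR). Rock1, a kinase that acts on the actin cytoskeleton, measured 56.7 to 65.8 CPM in control and 83.9 to 102 CPM in DEX (0.60 ± 0.081, adjusted p = 0.00997). Ccar1, a transcriptional coactivator, had control libraries within 104 to 107 CPM and DEX libraries at 136 to 159 CPM (0.47 ± 0.068, adjusted p = 0.0156). Cnksr3, a scaffold protein of kinase signalling, went from 6.97 ± 0.941 to 13.9 ± 1.78 CPM (1.00 ± 0.15, adjusted p = 0.0199 by edgeR). With the RIN under 3 libraries included, 6 against 6 without a covariate, the log2 fold changes reversed to -0.092 for Gng12 and -0.51 for Cnksr3. Eif2s2, a subunit of initiation factor eIF2, was the only one edgeR called of 34 translation factors (0.52 ± 0.079, adjusted p = 0.0199). In that list the unadjusted p was under 0.05 for 8 above and 1 below control, beside 7.67% and 8.60% of all genes tested, DESeq2 called 5 higher and 1 lower, and limma-voom called 1 higher. Ppp1r15a (Gadd34), which directs dephosphorylation of eIF2, rose from 50.8 ± 3.01 to 81.2 ± 15.9 CPM (0.68 ± 0.12, adjusted p = 0.0307 by edgeR). It was 1 of 2 calls by edgeR among 32 genes of the integrated stress and unfolded protein responses, where DESeq2 called 3 higher and 1 lower, and the unadjusted p was under 0.05 for 3 above and 1 below control. Over all genes tested edgeR called 0.395% higher and 0.410% lower. The other was Pdia6, a disulfide isomerase of the endoplasmic reticulum, which fell from 75.2 ± 3.90 to 58.1 ± 3.71 CPM (-0.37 ± 0.075, adjusted p = 0.0439 by edgeR).

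Immediate early genes, which neurons switch on within minutes of activity or stress, were mostly positive. Of 26 tested, 23 were positive with a median of 0.40, and edgeR called 2 (0.395% of all genes tested were called higher), Fos and Fosb. Fos measured 32.8, 34.8, 38.4 and 42.8 CPM in control and 53.1, 51.4, 47.2 and 52.1 CPM in DEX (0.45 ± 0.093, adjusted p = 0.0465). Fosb measured 21.1 to 25.5 CPM and 30.1 to 44.3 CPM (0.61 ± 0.12, adjusted p = 0.0443). The unadjusted p was under 0.05 for 11 members above and 1 below control, beside 7.67% and 8.60% of all genes tested. DESeq2 called 7 members higher and 0 lower, beside 574 and 600 of all 20744 genes tested, and limma-voom called 2 higher, beside 86. Npas4, an activity-dependent transcription factor, missed the threshold with 27.4 to 31.1 CPM in control and 33.2 to 45.1 CPM in DEX (0.46 ± 0.10, adjusted p = 0.0559). Egr1, Jun and Fosl2 were at 0.50 ± 0.11, 0.53 ± 0.12 and 0.34 ± 0.093, whereas Jund, Dusp6 and Inhba had negative values. Without Dex 27 the median of the list was 0.27. In the fits of 6 against 6 libraries it was 0.23 with RIN class as a covariate and 0.16 without, with 0 called. With RIN as a covariate in the 8 libraries it was 0.31, with 0 called. With 1 library left out, edgeR called 3 members without Dex 29 or Dex 30 and 0 without any of the other 6 libraries.

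Among the lower genes, those of cholesterol and fatty acid synthesis formed the list with the most members called. Neurons and glia make their own cholesterol, under the control of the transcription factor SREBP2, the product of Srebf2. Of the 26 genes tested in this list, 25 had negative log2 fold changes, with a median of -0.24, and 5 were called lower and 0 higher. Over all genes tested 0.410% were called lower. The unadjusted p was under 0.05 for 17 below and 0 above control, beside 8.60% and 7.67% of all genes. In 15 of the 26, all 4 DEX libraries lay below all 4 controls, beside 6.68% over all genes tested. DESeq2 called 12 lower and 0 higher, beside 600 and 574 of all 20744 genes tested. By limma-voom 6 were called lower and 0 higher, and over all genes tested it called fewer genes lower than DESeq2 did. The calls of edgeR in this list were lost with most single libraries left out. It called 0 without Control 21, 22, 23 or 24 and without Dex 28, 1 without Dex 29, 3 without Dex 27 and 6 without Dex 30, and with RIN as a covariate it called 0. The median of the list was -0.31 to -0.22 over these 8 omissions, and -0.21 and -0.22 in the fits of 6 against 6 libraries, where 0 were called.

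The regulator Srebf2 itself (chromosome 15, 82147181 to 82205379) measured 360, 338, 336 and 350 CPM in control and 266, 268, 263 and 279 CPM in DEX (-0.36 ± 0.061, adjusted p = 0.0285). Along the pathway, Acat2, which joins acetyl-CoA units at its first step, fell from 149 ± 6.14 to 112 ± 8.14 CPM (SD, n = 4 each), with a log2 fold change of -0.42 ± 0.072 (adjusted p = 0.0290 by edgeR). Mvk, mevalonate kinase (chromosome 5, 114444269 to 114460591), measured 49.9, 43.3, 49.4 and 50.9 CPM in control and 34.1, 32.1, 28 and 36 CPM in DEX (-0.57 ± 0.095, adjusted p = 0.0285). No DEX library of these 3 genes reached any control. Fasn, fatty acid synthase, fell from 1025 ± 88.0 to 769 ± 38.1 CPM (-0.41 ± 0.075, adjusted p = 0.0338 by edgeR). Outside the list, Fads2, a desaturase of polyunsaturated fatty acids, fell from 179 ± 6.92 to 126 ± 13.2 CPM (-0.51 ± 0.080, adjusted p = 0.0227 by edgeR).

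Log2 fold changes in the list ranged from -1.77 to 0.018, and some of the uncalled members are given by value. Hmgcs1, an early enzyme of the pathway, measured 1485 to 1556 CPM in control and 1101 to 1420 CPM in DEX (-0.27 ± 0.081, adjusted p = 0.121). Sqle, squalene epoxidase, was at -0.33 ± 0.083 (adjusted p = 0.0741), Insig1, a sterol sensor, at -0.26 ± 0.068 (adjusted p = 0.0831) and Scd2, a desaturase, at -0.33 ± 0.080 (adjusted p = 0.0732), each without overlap of the groups. Ebp, a sterol isomerase, was the only positive member at 0.018 ± 0.17. Summed over the list, control libraries lay at 7883 to 8235 CPM and DEX libraries at 6079 to 7139 CPM.

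The upstream stretches of Mvk (chr5:114444019-114444268, plus strand) and Fasn (chr11:120824548-120824797, minus strand) are shown for the called enzymes of this list. Capitals mark CCAAT on either strand, which occurs 5 times in the Mvk stretch and 3 times in that of Fasn, where a pair of matches overlap. Of all upstream stretches of 250 bases, 33.8% held this motif.
Mvk: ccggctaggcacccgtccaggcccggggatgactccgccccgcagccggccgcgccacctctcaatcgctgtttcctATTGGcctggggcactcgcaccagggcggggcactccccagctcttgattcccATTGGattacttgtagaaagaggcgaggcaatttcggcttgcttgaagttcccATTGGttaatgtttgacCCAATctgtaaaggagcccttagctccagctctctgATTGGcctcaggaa
Fasn: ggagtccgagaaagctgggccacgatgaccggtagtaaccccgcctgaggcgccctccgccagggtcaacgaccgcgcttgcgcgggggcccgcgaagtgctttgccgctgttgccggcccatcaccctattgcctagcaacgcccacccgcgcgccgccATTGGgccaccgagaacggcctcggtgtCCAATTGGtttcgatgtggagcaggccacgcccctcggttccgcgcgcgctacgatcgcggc
Neither contained any of the other motifs. Srebf2 had 1 CCAAT in the 162 bases taken, and Acat2 had none in 228. Of the 82 higher genes 49 had a promoter entry, and 3 of these (6.12%) held AGAACA, as did 10 (15.4%) of the 65 with an entry among the lower genes and 13.5% of the 12309 tested genes with an entry. The CCAAT box occurred in 19 of the 49, 26 of the 65 and 4924 of the 12309 genes, and the shares with ACAAAG were 14.3%, 15.4% and 14.7%. The sterol element TCACNCCAC occurred in 4.08%, 4.62% and 1.26%, that is in 2 higher and 3 lower genes.

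**Figure D3:**
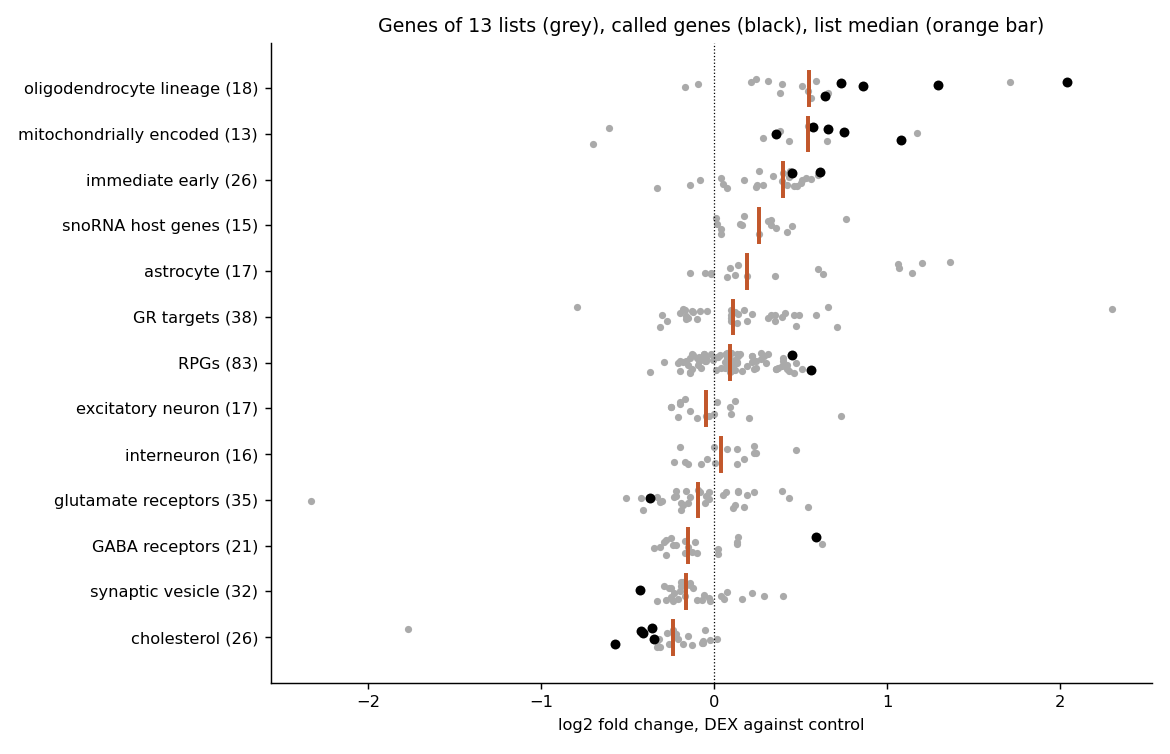
Each point is 1 gene placed by its log2 fold change of DEX against control, in rows for 13 gene lists with the number tested, black where called and with an orange bar at the list median. The oligodendrocyte and mitochondrial lists have medians of 0.55 and 0.54, and the cholesterol list lies almost wholly below 0 with a median of -0.24.

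Lower calls outside the lists are given by gene. Crmp1 and Dpysl5, members of the collapsin response mediator family that act in axon guidance, fell from 895 ± 24.6 to 679 ± 35.7 CPM and from 771 ± 36.5 to 569 ± 49.3 CPM (SD, n = 4 each). Their log2 fold changes were -0.40 ± 0.064 and -0.44 ± 0.075 (adjusted p = 0.0255 and 0.0285 by edgeR). Coro1a, an actin-binding coronin, measured 28.2 to 31.2 CPM in control and 17.9 to 20.2 CPM in DEX (-0.64 ± 0.093, adjusted p = 0.0169). Rac3, a small GTPase of neurons, measured 39.0 to 44.6 CPM and 23.3 to 31 CPM (-0.61 ± 0.10, adjusted p = 0.0285). Tubb3, the tubulin used as a neuronal marker, measured 362 to 398 CPM and 254 to 323 CPM (-0.42 ± 0.078, adjusted p = 0.0364). Actg1, cytoplasmic actin, measured 1791 to 1960 CPM and 1345 to 1547 CPM (-0.37 ± 0.068, adjusted p = 0.0365). Tubb3 and Actg1 were chosen after their values were seen.

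Further lower genes had various roles. Sfrp1, a secreted inhibitor of Wnt signalling, measured 165 to 184 CPM in control and 112 to 141 CPM in DEX (-0.55 ± 0.083, adjusted p = 0.0199). Nnat, an imprinted gene of developing neurons, fell from 588 ± 25.4 to 403 ± 54.3 CPM (SD, n = 4 each), or by 0.54 ± 0.088 on the log2 scale (adjusted p = 0.0255 by edgeR). Ppp2r1a, a scaffold subunit of protein phosphatase PP2A, was at -0.46 ± 0.075, Zmiz2, a transcriptional coregulator, at -0.38 ± 0.064, and Rtl6, a retrotransposon-derived gene, at -0.45 ± 0.076. The largest falls at a mean of at least 1 CPM were in Mrpl53, a mitochondrial ribosomal protein (5.04 to 6.74 and 1.79 to 3.10 CPM, -1.20 ± 0.23), Mfsd5 (5.86 to 8.01 and 2.62 to 3.64 CPM, -1.13 ± 0.20) and Fam131a (18.3 to 23 and 9.98 to 15.5 CPM, -0.77 ± 0.15).

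Synaptic lists had few calls by edgeR, while more of their members lay below control by the unadjusted p. Over all genes tested, 0.410% were called lower, 8.60% were lower by the unadjusted p and 6.68% had all 4 DEX libraries below all 4 controls. Of 32 synaptic vesicle and synapse genes, 25 were negative with a median of -0.16. The unadjusted p was under 0.05 for 3 above and 10 below control, and in 9 the DEX libraries all lay below. DESeq2 called 1 higher and 2 lower, and edgeR and limma-voom called only Nrxn2, a presynaptic adhesion molecule (344 to 368 CPM in control, 226 to 305 CPM in DEX, -0.43 ± 0.084, adjusted p = 0.0393). Of 35 glutamate receptor genes, 23 were negative, 9 were below and 2 above control by the unadjusted p, and in 5 the DEX libraries all lay below. DESeq2 called 1 higher and 4 lower, and edgeR called 1, Grik5, a kainate receptor subunit (139 to 148 and 104 to 124 CPM, -0.37 ± 0.072, adjusted p = 0.0391). Among 21 genes of GABA receptors and chloride transport, 14 were negative, 6 were below and 1 above control by the unadjusted p, and in 4 the DEX libraries all lay below. DESeq2 called 1 higher and 2 lower, and the 1 call of edgeR was the chloride importer Slc12a2, which was higher (34.5 to 36 and 45.0 to 67.6 CPM, 0.59 ± 0.11, adjusted p = 0.0383). With library totals without factors, edgeR called 17 genes of the synaptic vesicle list lower, 10 of the glutamate receptor list and 7 of the GABA list. It then called 0 higher in these lists, and 1991 of all 20744 genes lower. Ncan, a proteoglycan of the extracellular matrix, was the 1 call of edgeR among 29 matrix genes (338 to 354 and 256 to 285 CPM, -0.33 ± 0.063, adjusted p = 0.0384), and DESeq2 called 2 of them lower.

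None of the known targets of the receptor was called. Of 44 listed, 38 were tested, with 23 positive, 15 negative and a median of 0.11. Their log2 fold changes ranged from -0.79 to 2.30. In 3 of the 38 all 4 DEX libraries lay above all 4 controls, and in 0 all lay below. Over all genes tested these shares were 4.68% and 6.68%. By edgeR 0 were called, the unadjusted p was under 0.05 for 3 above and 0 below control, beside 7.67% and 8.60% of all genes tested, while DESeq2 called 1 and limma-voom 0. Fkbp5, a chaperone that feeds back on the receptor, measured 16.9, 16.1, 17.3 and 14.3 CPM in control and 19.2, 16, 17.8 and 16.2 CPM in DEX (0.10 ± 0.12, adjusted p = 0.711). Tsc22d3 (Gilz) measured 16.8 to 21.6 CPM and 15.5 to 22 CPM (-0.16 ± 0.13, adjusted p = 0.605). Sgk1, a kinase induced by corticosteroids, measured 14.8 to 17.6 CPM and 9.89 to 17.1 CPM (-0.27 ± 0.15, adjusted p = 0.422). The clock gene Per1 was at -0.043 ± 0.093 and the mTOR inhibitor Ddit4 at -0.31 ± 0.15 (adjusted p = 0.865 and 0.330). In all 5 of these genes the groups overlapped, and with SEs of 0.093 to 0.15 a change of 2-fold would have stood well outside the error. The 3 targets past the unadjusted threshold, a share near that of all genes, were Klf9 (0.59 ± 0.15, adjusted p = 0.0799), Zbtb16 and Pdk4, named after their values were seen.

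The groups also overlapped for the receptors. Nr3c1, which encodes the glucocorticoid receptor, measured 9.87 to 12.4 CPM in control and 9.86 to 12.5 CPM in DEX (-0.047 ± 0.14, adjusted p = 0.907), and Nr3c2, the mineralocorticoid receptor, 6.19 to 8.50 CPM and 4.50 to 7.83 CPM (-0.27 ± 0.19, adjusted p = 0.534). Among the other genes chosen as stress markers for qPCR, Crhr1, a receptor of corticotropin-releasing hormone, was at -0.41 ± 0.31, and Ddit4l was near its detection limit with 0.272 to 0.806 CPM in control and 0 to 0.795 CPM in DEX. edgeR, DESeq2 and limma-voom called 0 of the 5 markers (these 4 and Sgk1), and 0 had an unadjusted p under 0.05. Of 21 clock genes edgeR called 1, beside 0.395% of all genes called higher and 0.410% lower. It was the repressor Bhlhe40, which was lower (43.4 to 48.1 and 24.8 to 36.2 CPM, -0.53 ± 0.11, adjusted p = 0.0465). DESeq2 called 1 clock gene higher and 1 lower, beside 574 and 600 of all 20744 genes tested. The unadjusted p was under 0.05 for 2 above and 3 below control, beside 7.67% and 8.60% of all genes tested.

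Further lists had no call or lay close to 0, and their counts stand beside the 7.67% of all genes tested that were higher and the 8.60% that were lower by the unadjusted p. All 15 snoRNA host genes tested were positive, with a median of 0.26, and edgeR and limma-voom called 0 while DESeq2 called 3, with 3 higher at an unadjusted p under 0.05. With 1 library left out the median was 0.16 to 0.30, and without Dex 30 edgeR called 1 higher. The largest of the well expressed members was Snhg14, a long imprinted transcript, with 115 to 163 CPM in control and 173 to 199 CPM in DEX (0.45 ± 0.099, adjusted p = 0.0559). Of 21 genes of the REDD and mTOR pathway, which limits growth under stress, 19 were negative with a median of -0.13, and edgeR and limma-voom called 0 while DESeq2 called 1, with 3 lower at an unadjusted p under 0.05. Of 25 markers of dividing and progenitor cells 14 were positive, with a median of 0.14, and edgeR, DESeq2 and limma-voom called 0, with 3 higher at an unadjusted p under 0.05. The median of these markers was 0.014 to 0.23 with 1 library left out. Medians of the proteasome (-0.050), heat shock (-0.042), stress granule (-0.030) and calcium channel (0.0090) lists were near the median of all genes. edgeR and limma-voom called 0 in these 4 lists. The unadjusted p was under 0.05 for 3 above and 4 below control in the proteasome list, 2 and 1 in the heat shock list, and 3 and 3 in each of the other two. DESeq2 called 1 proteasome gene lower, 1 heat shock gene higher and 1 lower, 3 stress granule genes higher and 2 calcium channel genes lower. The summed level of the stress granule list was 4039 to 4201 CPM in control and 4240 to 4752 CPM in DEX, without overlap.

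Ribosomal protein genes (RPGs) and their processed pseudogenes were tested with the rest. Of 83 RPGs, 56 were positive with a median of 0.094, and edgeR called 2 higher and 0 lower, beside 0.395% of all genes tested called higher. DESeq2 called 19 higher and 0 lower, beside 574 and 600 of all 20744 genes tested, and limma-voom called 1 higher, beside 86. Rpl23a, of the large subunit, measured 247, 226, 208 and 177 CPM in control and 342, 349, 295 and 282 CPM in DEX (0.56 ± 0.10, adjusted p = 0.0356). Control 24 was the lowest library for it. The unadjusted p was under 0.05 for 25 RPGs above and 1 below control, beside 7.67% and 8.60% of all genes tested, and in 9 all DEX libraries lay above all controls, beside 4.68%. With 1 library left out, edgeR called 11 RPGs without Dex 30 and 0 without any of the other 7 libraries, and the median was 0.034 to 0.18. With library totals without factors the RPG median was -0.085, with 1 called higher and 7 lower. With RIN as a covariate it was 0.016 with 0 called. In the fits of 6 against 6 libraries it was 0.22 with RIN class as a covariate and 0.32 without, with 0 called. Of the 132 RP pseudogenes tested (300 listed), 103 were positive with a median of 0.59, and edgeR and limma-voom called 0 whereas DESeq2 called 2, and the unadjusted p was under 0.05 for 17 above and 3 below control. The study's methods describe mapping without mismatches to a genome with spliced RPG sequences added, where reads with more than 1 locus were discarded. Single values of RPGs and near-identical pseudogenes depend on that step and are uncertain. Summed RP pseudogene levels were 446, 456, 367 and 136 CPM in Control 21 to 24 and 615, 712, 507 and 417 CPM in Dex 27 to 30, so the groups overlapped, and Control 24 lay far below all other libraries.

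Control 24 was examined for its influence. It lay more than 2-fold below all 7 other libraries in 380 genes, of which 319 were processed pseudogenes. Without it, the median log2 fold change of the 1638 processed pseudogenes tested went from 0.54 to 0.29, and that of the RP pseudogenes from 0.59 to 0.29. With each of the other controls left out, the median of processed pseudogenes was 0.62 to 0.67, and with each DEX library left out it was 0.41 to 0.65. The median log2 fold change of the 82 higher genes was 0.60 with it and 0.57 without it, and that of the 85 lower genes -0.42 and -0.40. Of the 167, the log2 fold changes that shifted most without Control 24 were those of Gm13339 (1.89 to 1.56), Gm27517 (-5.18 to -5.46) and Mal (2.36 to 2.49). At the adjusted threshold, however, 15 genes were higher and 2 lower without it, of which 15 and 1 were among the original calls. Of the oligodendrocyte list 3 genes were then called, of the mitochondrial mRNAs 4, and of the cholesterol, immediate early and ribosomal protein lists 0.

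That loss was not particular to Control 24 by these counts. With Control 21, 22 or 23 left out, 9, 10 and 10 genes were higher and 0 lower, and the unadjusted p was under 0.05 for 1221 to 1403 genes below control. Without Dex 28, 10 were higher and 0 lower, and without Dex 29, 30 and 9. Without Dex 27, which had the fewest genes, 51 were higher and 41 lower. Without Dex 30, 353 were higher and 508 lower, which included all 82 and all 85. Called under all 8 omissions were 8 genes, among them Mobp, Mal, mt-Nd6, mt-Nd2, mt-Nd5, mt-Cytb and Gm10925. Of the cholesterol genes, Mvk had an adjusted p of up to 0.116 and Srebf2 of up to 0.120 when 1 library was left out, with log2 fold changes of -0.62 to -0.51 and -0.38 to -0.34.

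**Figure D4:**
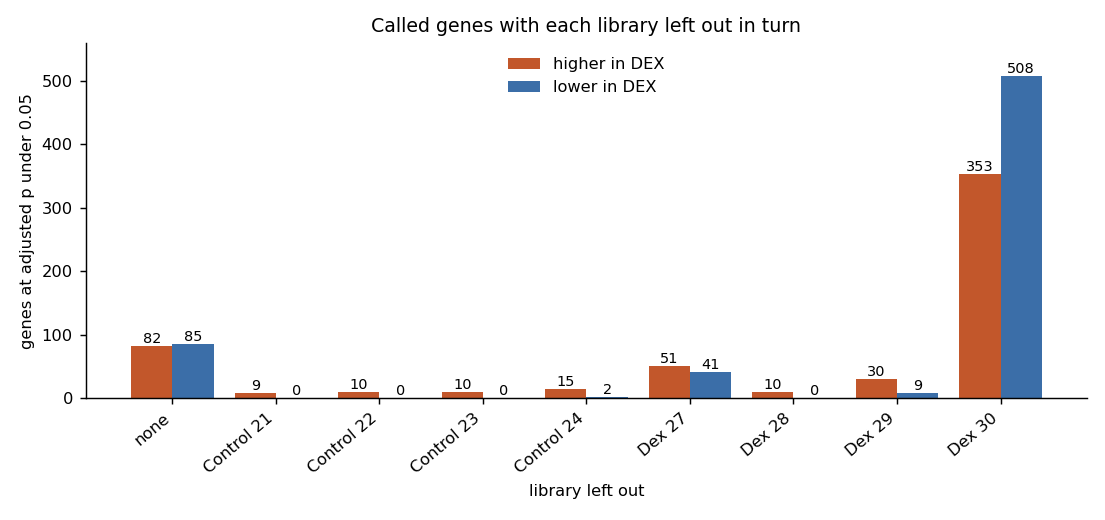
Bars give the number of genes at an adjusted p under 0.05, higher and lower in DEX, with no library left out and with each of the 8 left out in turn. The counts are 82 and 85 with all libraries, fall to 15 and 2 without Control 24, and reach 353 and 508 without Dex 30.

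Sequence composition went along with direction. Among nuclear protein-coding genes, 59 of the 84 lower genes lay in the upper of 3 equal classes of GC content of the longest transcript (53.1 to 74.7%) and 5 in the lower class. Of the 59 higher genes, 8 lay in the upper class and 36 in the lower. The median GC content was 44.0% in the higher genes, 56.2% in the lower genes and 49.8% over all 14656. Over all genes of each class, the median log2 fold change was 0.022, -0.046 and -0.11 from low to high GC. The part of GC content in the differences was not tested.

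The same comparison in batch 1, with 6 control and 5 DEX libraries of RIN 6 or above, shares no library with batch 2. Its controls had a RIN of 7.80 to 9.20 and totals of 24.2 to 82.4 M, its DEX libraries a RIN of 6.20 to 7.80 and totals of 12.1 to 15.1 M, so that treatment, RIN and depth cannot be told apart in it. In batch 1, 1706 genes (8.84%) were called higher and 2304 (11.9%) lower. Of the 82 genes higher in batch 2, 73 (89.0%) were positive in batch 1 and 34 were called higher there, and of the 85 lower genes, 78 (91.8%) were negative and 47 were called lower. Over all genes tested in both batches, 51% were positive in batch 1. The exceptions called in opposite directions were Ankrd12 (0.41 in batch 2 and -0.52 in batch 1) and Lrch2 (0.39 and -0.32), named after their values were seen.

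In batch 1 the oligodendrocyte list had a median of 1.83, with 16 of 17 called higher, and Mobp and Mal had log2 fold changes of 2.94 and 2.54. The immediate early genes had a median of 1.51 there, with 19 of 26 called higher. The cholesterol list had a median of -0.38, with 15 of 26 called lower, and Mvk and Srebf2 were at -0.58 and -0.44, whereas Fasn was at -0.033. Mitochondrial mRNAs had a median of 0.37, with 2 of 13 called. The known receptor targets had 10 of 36 called higher and 1 lower in batch 1, with a median of 0.50, and Per1 (0.85) and Tsc22d3 (0.71) were among those called.

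The difference in the DEX effect between batches was tested in 1 model of the 19 libraries, and 475 genes (2.36%) passed, 348 with a higher and 127 with a lower log2 fold change in batch 2. Of the 167 called genes, 9 higher and 2 lower ones were among them. mt-Nd6 was one, with 1.08 in batch 2 and 0.18 in batch 1 (difference 0.91, adjusted p = 0.0205), and Ccar1 another, with 0.47 and 0.0042 (difference 0.48, adjusted p = 0.0428). Gm27517, with few counts, was a further one, with -5.18 and 0.16 (difference -5.30, adjusted p = 0.0487). The difference did not pass for Mobp or Mal (adjusted p = 0.328 and 0.923), nor for Mag, Mbp, Per1 or Tsc22d3 (0.0630, 0.0697, 0.0710 and 0.149). In the oligodendrocyte, receptor target, immediate early and cholesterol lists, it passed with a lower log2 fold change in batch 2 for 1 oligodendrocyte gene (Cnp), 1 receptor target (Dusp1) and 3 immediate early genes (Jun, Jund and Btg2), and with a higher one for 2 cholesterol genes (Stard4 and Sc5d), named after their values were seen.

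**Figure D5:**
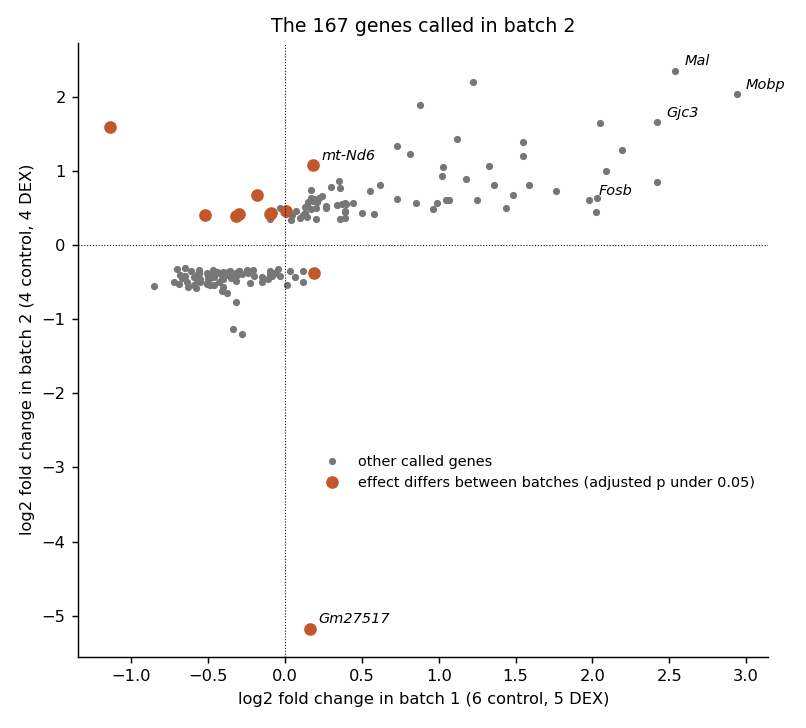
Each point is 1 of the 167 genes called in batch 2, placed by its log2 fold change in batch 1 (horizontal) and batch 2 (vertical), in orange where the effect differs between batches at an adjusted p under 0.05. Most genes lie in the lower left and upper right. mt-Nd6 lies near 0 in batch 1, and Gm27517 is the lowest point.

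Batch 2 also held 4 intact libraries of cultures given 1 µM DEX with 1 µM RU-486, with RIN 7.60 to 8.70 and totals of 22.8 to 27 M counts. Since they would be set against these same control and DEX libraries, their levels are given side by side, on a CPM scale common to all 36 libraries. Mean Mobp was 21.7 CPM in control, 88.6 in DEX and 12.8 in DEX + RU-486, and mean Mag 21.5, 38.7 and 11.4 CPM. The summed oligodendrocyte list was 522 to 706, 905 to 1408 and 177 to 524 CPM. Mean mt-Nd6 was 374, 788 and 451 CPM, and mean Fos 32.5, 44.3 and 26.7 CPM. For Mvk the means were 42.3, 28.3 and 34.5 CPM and for Srebf2 302, 234 and 256 CPM, and the summed cholesterol list was 6835 to 7189, 5308 to 6228 and 5084 to 6320 CPM. Mean Mobp and mean Mag with RU-486 thus lay below those of control. The summed oligodendrocyte level with RU-486 ranged from far below every control to close to the lowest control. The summed cholesterol level of all 4 RU-486 libraries lay below every control.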

How the data were processed

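Cortical cells of C57 mice were cultured with or without DEX, and poly(A)-selected RNA was sequenced per the labels (the study's methods describe a total RNA library). The authors deposited raw read counts per gene, whole numbers that had not been normalized, in a table of 55492 entries. The submitters' processing notes name HISAT2 2.1.0 for alignment, Subread 1.5.0-p2 for counting and build GRCm38, and whether counting used strand is not given in the sources used here. 5 entries for transgenes had 0 counts in the 8 libraries, and 55227 identifiers matched GENCODE M21, from which names, biotypes, positions and GC content were taken.

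Samples were grouped by their labelled treatment, batch and RIN. Genes with a mean count above 5 over the 8 libraries were tested with edgeR 4.0.16 (R 4.3.3, TMM factors, quasi-likelihood F test, Benjamini-Hochberg adjustment over all 20744 genes, adjusted p under 0.05). Every adjusted p in the text is from this edgeR test unless another tool is named. Log2 fold changes are DEX minus control with the SE from the F statistic, and CPM were computed with the TMM-scaled totals. The fit was tested on simulated data. The treatment by batch interaction was fitted over 19 control and DEX libraries with RIN of 6 or above, and comparisons of library measures used two-sided exact permutation tests. Common biological variation was 28.1%, total counts were 21.3 to 47.3 M, and no pair of libraries agreed within sampling noise. A library's counts limit the precision of genes near 1 CPM.

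Genes named were those with the smallest p in each direction (up to 12, groups not overlapping), those with the largest changes at a mean of 1 CPM or more (up to 6), called members of 33 gene lists (4 in each direction where more than 8 were called), 5 targets and the 5 qPCR markers, and the 3 called genes whose log2 fold change shifted most without Control 24. Unnamed gene models were counted only in the rules on p and size, and some genes that met these rules are not reported here. Further members are given as values. The libraries compared, the genes and the lists were chosen with earlier results of these data known. Alternatives included DESeq2 1.42.0, limma-voom 3.58.1 with quality weights, sva 3.50.0, other scalings and filters, RIN as a covariate, degraded libraries included and each library left out, and 3 of them were chosen after seeing the data.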

Additional observations from a re-analysis of the deposited data

Results flagged for a closer look

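In 14 of 200 groups of 4 libraries, 1 library lay far from the other 3 by the gap to the nearest relative to the range, and chance gives about 1 in 20. Control 24 stood apart in its share of counts on processed pseudogenes, 0.153% against 0.374 to 0.412% in the other controls, and in the summed level of potassium and sodium channel genes, 1865 CPM. Control 21 stood apart in the summed cholesterol list at 8235 CPM, in Gng12 at 25.4 CPM and in Coro1a at 31.2 CPM. Control 22 stood apart in Fads2 at 189 CPM and in Mrpl53 at 6.74 CPM, and Control 23 in mt-Co1 at 5427 CPM. Among the DEX libraries, Dex 28 stood apart in Ncan at 256 CPM. Dex 30 stood apart in 5 genes, mt-Nd6 at 788 CPM, Sfrp1 at 141 CPM, Nnat at 484 CPM, Zmiz2 at 214 CPM and Dpysl5 at 642 CPM, each time on the side toward the controls.

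The DEX effect differed between batches for mt-Nd6 by 0.91 and for Ccar1 by 0.48 on the log2 scale, both larger in batch 2, and for Gm27517, at most 2.11 CPM in the 8 libraries of batch 2, by -5.30. Over all genes tested, 475 differed by edgeR's interaction test. RIN and depth differ between the treatment groups in batch 1. With RIN as a covariate 249 genes passed, and the part of depth was not tested.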

How the results depend on the processing

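The number of called genes depended on which libraries and which test were used. Against 82 higher and 85 lower genes, leaving out 1 library gave 9 to 353 higher and 0 to 508 lower. DESeq2 called 574 and 600, no filter beyond 1 count 663 and 677, and a filter of at least 10 counts in every library 145 and 135. With RIN as a covariate 7 were higher and 0 lower by edgeR, with 706 and 949 at an unadjusted p under 0.05. With the RIN under 3 libraries included (6 against 6), 1 and 0 passed with RIN class as a covariate and 0 and 0 without, and in a fit of all 36 libraries 0 and 0, with 983 and 1138 at an unadjusted p under 0.05. Lower genes numbered 48 with the RU-486 libraries in the fit, 38 with upper-quartile factors and 1991 with library totals without factors, which moved the median of all genes to -0.18. Chosen after seeing the data, omission of Control 24 with Dex 27 gave 39 and 28, and of Dex 27 with Dex 28 gave 11 and 0. The batch difference passed in 1052 genes with DESeq2 and in 249 with RIN as a covariate, against 475.

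Of 1368 alternatives for the 51 called genes named, 808 kept the call, 555 kept the direction without the call and 5 reversed. Those 5 were in the 6 against 6 fits, without a covariate for Gng12 (-0.092), Cnksr3 (-0.51), Mbp (-0.080) and Ugt8a (-0.078), and with RIN class for Ugt8a (-0.021). The uncalled genes named changed sign in 16 of 241, and Ddit4 passed in 1, at -0.50 with totals without factors. Of 429 alternatives for the 33 list medians, 61 moved by more than the spread between replicates, most often with totals without factors. In the same 6 against 6 fits Crhr1 went to 0.057 and 0.16 and Per1 to 0.084 and 0.072. Fkbp5 went to -0.084 with totals without factors and to -0.0057 without Control 24 and Dex 27, where Per1 was at 0.0053. Nr3c1 went to 0.0035 with sva and to 0.095 without Dex 27 and Dex 28, where Ddit4l was at 0.27. With 1 library left out, Nr3c1 ranged from -0.12 to 0.0018, Per1 from -0.13 to 0.027 and Ddit4l from -0.41 to 0.37. The causes were not tested. No paired or blocked analysis was run. The labels give no pairing of control with DEX libraries, which does not exclude a block shared by library order. The 18S rRNA entry took 1.02, 1.03, 0.577 and 0.436% of counts in Control 21 to 24. In Dex 27 to 30 it took 1.05, 1.03, 0.657 and 0.627%. Whether library order marks a block shared by the groups was not tested, and the p-values take no account of one.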
